A study of Mus musculus with 9 samples.

Results

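The cells described here carry the authors' label EC1, the most numerous endothelial label in a single-cell RNA sequencing study of the mouse thyroid. They were taken as all cells whose deposited annotation reads EC1, which gave 1603 of 10186 cells. The other endothelial labels were EC2 with 409 cells, EC3 with 365 and EC4 with 1046. The mice were male C57BL/6 animals of 10 to 12 weeks per the study's design text, while the treatment protocol gives an upper age of 14 weeks. Each mouse had a single intraperitoneal dose of antibody and was studied 7 days later. The control group, RW, was given an isotype antibody to ragweed at 40 mg/kg. The group aJ1aJ2 was given antibodies that block the Notch ligands Jag1 and Jag2, at 20 mg/kg each. The group aN1aN2 was given antibodies that block the receptors Notch1 and Notch2, at 5 and 10 mg/kg. Each group had 3 samples, each sample was a pool of 6 thyroids digested with Liberase, and the injection was systemic. The samples were pools of different mice, so the spread between them is between pools.

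Thyroid follicles are wrapped in a dense net of fenestrated capillaries, whose thin walls let hormone pass into the blood. Plvap builds the diaphragms that close these pores, and signalling by vascular endothelial growth factor (VEGF) through its receptor Kdr maintains such capillaries. In blood vessels the Notch ligand Dll4 acts on Notch1 and Notch4, and its targets Hes1, Hey1 and Hey2 restrain sprouting and promote arterial identity. Jag1 and Jag2 are further ligands of the same receptors.

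EC1 cells numbered 191, 182 and 288 in the RW samples, 89, 279 and 310 in aJ1aJ2, and 117, 72 and 75 in aN1aN2. They held a median of 4679 to 4968 unique molecular identifiers (UMIs, counted RNA molecules) per cell in RW, 3473 to 4071 in aJ1aJ2 and 2518 to 3533 in aN1aN2. EC1 made up 50%, 59.1% and 63.4% of the EC1 to EC4 cells of the RW samples. Its share was 53.9%, 49.5% and 47.0% in aJ1aJ2 and 32.2%, 24.7% and 31.8% in aN1aN2. The shares were not tested, because markers of the label differed between the groups. The numbers in the sample titles fall into 3 ranges: one holds RW 3 and aJ1aJ2 1, another holds RW 1, RW 2, aJ1aJ2 3 and aJ1aJ2 4, and the third holds the aN1aN2 samples only. The receptor blockade and the third range cannot be told apart. A cell barcode occurred in more than 1 library 15 times among all cells and once among EC1 cells.

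In the RW samples the label carried the signature of a fenestrated capillary. Levels are given as CPM, UMI counts scaled to 1 common library total, here on a scale shared by the 4 endothelial labels. Esm1, a secreted proteoglycan of VEGF-stimulated endothelium, averaged 1914 CPM in EC1 (range 1696 to 2341 over 3 samples), 7.68 in EC2 and 95.2 in EC3. Plvap averaged 4477 CPM in EC1, 86.8 in EC2 and 761 in EC3. Emcn, a sialomucin of the capillary surface, averaged 4627 CPM in EC1, 723 in EC2 and 677 in EC3. Rbp7, a retinol-binding protein, and Col13a1, a membrane-bound collagen, averaged 1030 and 735 CPM in EC1. All 5 markers were higher in EC1 than in EC3 in 8 of 8 samples with enough cells of both labels. Against EC2, 4 of them were higher in 7 of 7 samples and Rbp7 in 6 of 7. How the labels were made is not given in the sources used here, and genes of the same cells may have entered, so these values are descriptions and carry no test.

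The labels differed from EC1 in different ways. EC2 carried the fatty acid transporter Cd36 at 3190 CPM and the fatty acid binding protein Fabp4 at 30197 CPM, against 66.6 and 1731 in EC1. EC3 carried the lymphatic genes Ccl21a, a chemokine, at 2216 CPM and Mmrn1, a matrix protein, at 644 CPM. In EC1, Ccl21a was at 0.271 CPM, and no RW sample had a UMI of Mmrn1. Cldn5, a tight junction protein, was at 17.2 CPM in EC1 against 1268 in EC2 and 1371 in EC3. Vwf, a clotting factor stored by larger vessels, was at 3.08 CPM in EC1 and 310 in EC3. EC4 also carried the 5 markers. Its RW means were 1516 CPM for Esm1, 4131 for Plvap, 3919 for Emcn, 674 for Rbp7 and 687 for Col13a1. EC1 was above EC4 in 8, 5, 6, 9 and 8 of 9 samples for these genes in the same order, and of the 5 only Rbp7 was higher in every sample. EC4 had the higher Kdr in 9 of 9 samples, with an RW mean of 3082 CPM against 2389 in EC1. Its cells, from the same libraries, held fewer UMIs, with a median of 1046 against 3994.

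**Figure D1:**
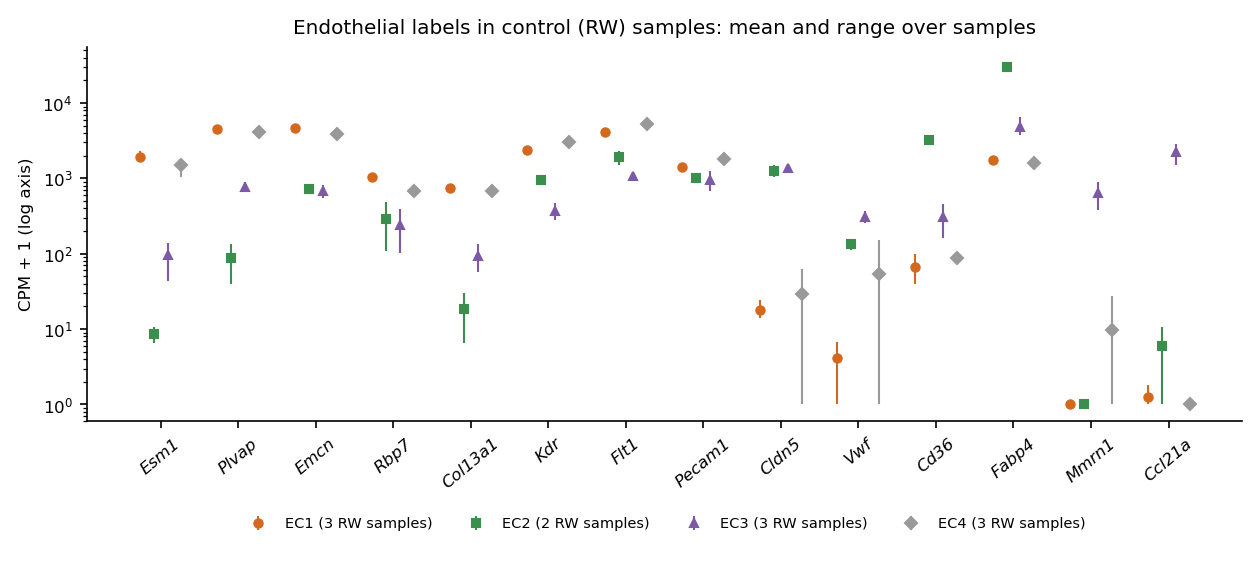
CPM + 1 on a log axis of 14 genes in EC1, EC2, EC3 and EC4 of the RW samples (points are means, bars run from the lowest to the highest of 3 samples, 2 for EC2). EC1 and EC4 sit together at the capillary markers on the left, EC2 stands apart at Cd36, EC2 and EC3 at Cldn5, and EC3 at the lymphatic genes.

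UMIs of some genes lay in few EC1 cells. Of the 5143 UMIs of the MHC class II genes Cd74, H2-Aa, H2-Ab1 and H2-Eb1 in EC1, 93.7% lay in the 5% of EC1 cells richest in them. The same share was 96.8% for globins, 47.4% for the thyrocyte product Tg, 29.5% for Kdr and 22.2% for Plvap. It was also high for the endothelial genes Cldn5 and Cd36, at 94.1% and 71.3%, which had 271 and 1415 UMIs in EC1. Carrying at least 2 different genes of the macrophage, dendritic and B cell, or T and NK cell lists marked 60 EC1 cells, or 3.74%. Mki67, a marker of dividing cells, had no UMI in any EC1 cell.

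EC1 of the aN1aN2 group differed broadly from RW, and receptor blockade cannot be told apart here from the range of sample numbers. After antibodies to Notch1 and Notch2, 827 genes were higher and 837 lower than in RW among 9369 tested, 17.8% of them (edgeR's quasi-likelihood test, Benjamini-Hochberg adjusted p under 0.05). The higher genes were 8.83% and the lower genes 8.93% of those tested, and the median log2 difference over all genes was -0.01. The CPM of RW and aN1aN2 did not overlap for 34.3% of genes, and 29.8% had an unadjusted p under 0.05. Below, CPM are scaled within EC1 alone, values follow the order of samples 1, 2 and 3 (1, 3 and 4 for aJ1aJ2), and each gene is set against this background. Among 5 capillary markers 4 fell and none rose. These are the markers of the label, whose cells are mostly from RW and aJ1aJ2, so their choice favours a fall in aN1aN2.

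Esm1 was at 1601, 1611 and 2233 CPM in the RW samples and at 217, 185 and 216 in aN1aN2. Every aN1aN2 sample lay far below every RW sample, and the mean fell 8.80-fold (log2 difference -3.14, SE 0.16, adjusted p = 1.39e-11). Emcn was at 4129.6, 4184 and 4847 CPM in RW and 1592, 1462 and 1378 in aN1aN2, again without overlap (log2 difference -1.57, SE 0.12, adjusted p = 9.99e-09). Rbp7 was at 1008, 1022 and 896 CPM in RW and 382, 263 and 306 in aN1aN2 (log2 difference -1.62, SE 0.14, adjusted p = 4.09e-08). Col13a1 was at 693, 696 and 700.0 CPM in RW and 459.7, 531 and 458 in aN1aN2, a smaller fall (log2 difference -0.53, SE 0.12, adjusted p = 0.003). Plvap was the exception: it was at 4080.4, 3812 and 4841 CPM in RW and 4257, 4098 and 4307 in aN1aN2, the groups overlapped, and the log2 difference was -0.01 with an SE of 0.13 (adjusted p = 0.976). Of 8 members of the fenestration and caveolae list, 1 was higher and 2 were lower. Ehd4, a membrane-trafficking protein, fell from 1059, 1026 and 1213 to 403, 349 and 325 CPM (log2 difference -1.61, SE 0.12, adjusted p = 6.14e-09), Cav2 fell by 0.41 and Cavin1 rose by 0.43 on the log2 scale (adjusted p = 0.0236 and 0.0193). The Cav2 call was lost without RW 1, RW 3, aN1aN2 2 or aN1aN2 3 (highest adjusted p 0.116), and the Cavin1 call with no filter on low counts and without RW 3, aN1aN2 1 or aN1aN2 2 (0.0937).

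Receptors of the VEGF pathway were split. Kdr, the main signalling receptor, was at 2357, 2400.2 and 2035 CPM in RW and 416, 410.3 and 401 in aN1aN2. The treated samples lay close together, and Kdr fell 5.53-fold (log2 difference -2.47, SE 0.11, adjusted p = 3.55e-12). Its co-receptor Nrp1 was at 1994, 1981 and 2106 CPM in RW and 535, 373 and 509 in aN1aN2, a 4.29-fold fall (log2 difference -2.10, SE 0.13, adjusted p = 1.67e-10). Flt1, the decoy receptor that binds VEGF without strong signalling, was at 4134, 4222 and 3441 CPM in RW and 3760.3, 3668 and 3868 in aN1aN2, with overlapping groups (log2 difference -0.06, SE 0.10, adjusted p = 0.739). Of 16 members of the VEGF and angiopoietin list, 2 rose, 5 fell and 9 were not called.

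The other fallers of that list were Aplnr, the receptor of the vessel peptide apelin, which went from 204, 210.2 and 179.9 to 50.3, 45.6 and 41.4 CPM (log2 difference -2.09, SE 0.20, adjusted p = 1.33e-07), the lymphatic growth factor Vegfc (log2 difference -1.496, SE 0.35, adjusted p = 0.00421) and Pdgfb, which recruits pericytes (log2 difference -0.47, SE 0.13, adjusted p = 0.0115). The Vegfc call was lost with equal cell numbers (adjusted p = 0.138), and the Pdgfb call there and without aN1aN2 3 (highest adjusted p 0.104). The peptide hormone Adm rose from 13.3, 1.54 and 5.00 to 36.6, 34.9 and 25.5 CPM (log2 difference 2.29, SE 0.51, adjusted p = 0.00264). Pgf, a ligand of Flt1, had 3 UMIs in all RW samples together and 29 in aN1aN2, a depth-scaled ratio of 43.0 with a 95% counting interval of 13.3 to 221. The angiopoietin receptor genes Tek and Tie1 and the lymphatic VEGF receptor Flt4 were not called, with log2 differences of 0.19, -0.19 and -0.14.

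Genes of the pan-endothelial list moved in both directions. Of its 14 genes, 3 rose, 4 fell and 7 were not called, and the list's median log2 difference was 0.07. Pecam1, a junction adhesion molecule, rose from 1363, 1357 and 1288 to 2031, 2033 and 2114 CPM (log2 difference 0.62, SE 0.10, adjusted p = 0.0001). Esam, another junction molecule, rose by 0.72 and Cldn5 by 2.17 on the log2 scale (adjusted p = 4.29e-05 and 0.000614). Cldn5, which was low in EC1 and EC4 of RW, was at 48.03, 75.1 and 98.7 CPM in aN1aN2, under the RW means of EC2 and EC3 given above. Eng, a TGF-beta co-receptor, fell from 1151, 1243 and 1049 to 647, 469 and 519 CPM (log2 difference -1.07, SE 0.14, adjusted p = 1.27e-05). Ptprb and Ecscr, a junctional phosphatase and a cell-surface protein, fell by 0.44 and 0.62, calls lost without aN1aN2 2 and with equal cell numbers. Cdh5, the defining cadherin of endothelial junctions, was at 898, 932 and 694 CPM in RW and 887, 965 and 1060.0 in aN1aN2 and was not called (adjusted p = 0.285).

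**Figure D2:**
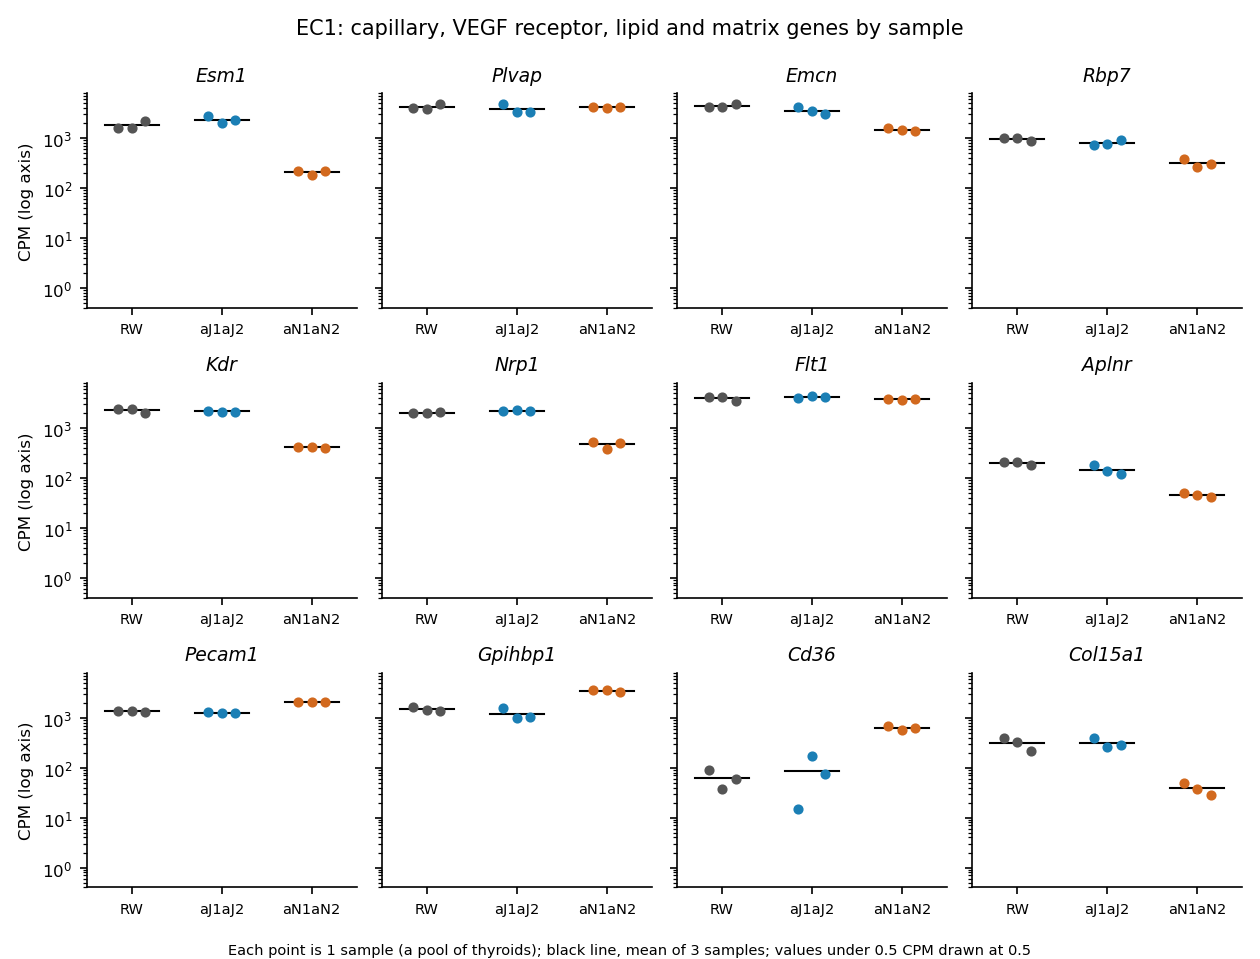
CPM on a log axis of 12 capillary genes in the 9 samples (points are samples, lines are group means, values under 0.5 drawn at 0.5). Esm1, Emcn, Rbp7, Kdr, Nrp1, Aplnr and Col15a1 are lower and Pecam1, Gpihbp1 and Cd36 higher in all 3 aN1aN2 samples than in any RW sample, while Plvap and Flt1 overlap.

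Of 10 arterial genes tested, 5 fell and 1 rose. Gja4, a gap junction protein of arterial endothelium, fell from 57.2, 46.2 and 66.8 to 4.57, 5.36 and 3.18 CPM, 12.6-fold (log2 difference -3.66, SE 0.42, adjusted p = 1.49e-06). Efnb2, the arterial ephrin, fell from 282, 266 and 238 to 93.8, 118 and 115 CPM (log2 difference -1.28, SE 0.15, adjusted p = 1.49e-06). Unc5b, a guidance receptor, fell from 51.9, 54.7 and 42.7 to 9.15, 16.1 and 0 CPM (log2 difference -2.46, SE 0.41, adjusted p = 0.000154). The remaining fallers, Hey1 and Dll4, and the riser Jag1 belong to the Notch pathway and are given with it. On the venous side 3 of 5 genes rose and 1 fell. Lrg1, a secreted glycoprotein made by venular endothelium, was at 18.6, 20.8 and 24.1 CPM in RW and 336, 303 and 350.1 in aN1aN2, a 15.3-fold rise with no overlap (log2 difference 3.94, SE 0.16, adjusted p = 1.75e-12). Nr2f2, the transcription factor that sets venous identity, rose from 14.6, 20.02 and 21.4 to 64.04, 50.95 and 44.6 CPM (log2 difference 1.51, SE 0.26, adjusted p = 0.000257). Ephb4, the venous partner of Efnb2, rose by 0.47 on the log2 scale (adjusted p = 0.0163), a call that was lost with no filter on low counts and without aN1aN2 1 or aN1aN2 2 (highest adjusted p 0.0983). Cx3cl1, a membrane-bound chemokine, fell by 1.495 (adjusted p = 0.00308). Icam1 was tested and not called. Selp, Sele and Ackr1, which mark venules proper, were too low to test, as were Vwf and Vcam1, and Sele had no UMI in EC1. In the fit with EC3, Vcam1 went from 10.8 CPM in RW to 0 in aN1aN2 in EC1, and from 147 to 171 in EC3. The difference of the log2 changes was -6.37 (edgeR, adjusted p = 0.0196). Its size rests on the 0, and the call was lost in some alternatives.

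Of 8 genes of lipid-handling capillaries tested, 4 rose, 1 fell and 3 were not called. Cd36 was at 91.8, 36.95 and 60.4 CPM in RW and 688, 577 and 621 in aN1aN2, 9.90-fold higher (log2 difference 3.31, SE 0.37, adjusted p = 1.22e-06). Gpihbp1, which holds lipoprotein lipase on the capillary wall, was at 1645, 1412 and 1377 CPM in RW and 3589, 3588 and 3326 in aN1aN2, 2.37-fold higher (log2 difference 1.24, SE 0.14, adjusted p = 1.55e-06). Lpl, the lipase itself, rose from 9.31, 10.01 and 17.7 to 61.8, 67.04 and 79.6 CPM (log2 difference 2.40, SE 0.28, adjusted p = 2.17e-06), and Fabp4 rose by 0.54 on the log2 scale (adjusted p = 0.00156), a call lost with equal cell numbers. The water channel Aqp1 fell from 399.7, 441 and 368 to 101, 142 and 274 CPM (log2 difference -1.27, SE 0.22, adjusted p = 0.000284).

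The basement membrane list moved in 1 direction, with 9 of 10 tested genes lower, none higher and a median log2 difference of -1.05. Col15a1, a collagen of the outer basement membrane, fell from 400.3, 328 and 219 to 50.3, 37.5 and 28.6 CPM (log2 difference -2.98, SE 0.28, adjusted p = 9.63e-08). The network collagens Col4a1 and Col4a2 fell by 1.07 and 0.79 on the log2 scale, the laminin chains Lamb1 and Lama4 by 2.18 and 0.96, and the linkers Nid1 and Nid2 by 1.11 and 1.04 (largest adjusted p 0.00912, for Nid2, whose call was lost in 3 alternatives). Hspg2, the proteoglycan perlecan, fell from 849, 813 and 611 to 320.2, 402 and 293 CPM (log2 difference -1.16, SE 0.15, adjusted p = 8.78e-06). Sparc, a collagen-binding protein, fell from 2046, 2017 and 2017 to 1049.9, 912 and 1082 CPM (log2 difference -0.999, SE 0.15, adjusted p = 7.18e-05). The laminin chain Lamc1 was the 1 member not called, at -0.12 (adjusted p = 0.748).

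The blocked receptors themselves differed in level. Notch1 RNA was at 271, 300.2 and 248 CPM in RW and 229, 249 and 283 in aN1aN2, with overlapping groups (log2 difference -0.11, SE 0.13, adjusted p = 0.62). Notch2 was near the limit of detection in EC1, at 6.65, 4.62 and 5.00 CPM in RW and 22.9, 10.7 and 15.9 in aN1aN2 (log2 difference 1.62, SE 0.47, adjusted p = 0.0186). Notch4 was at 114, 119 and 128 CPM in RW and 149, 233 and 156 in aN1aN2 (log2 difference 0.57, SE 0.18, adjusted p = 0.0263). The antibodies bind the receptor proteins, so RNA levels do not measure the block. Notch3, the receptor of mural cells, had 30 UMIs in all EC1 cells and was not tested.

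Among the ligands, Dll4 went from 135, 183 and 159 to 93.8, 61.7 and 111 CPM (log2 difference -0.85, SE 0.24, adjusted p = 0.0186). Jag1 went from 26.6, 33.1 and 26.8 to 57.2, 45.6 and 50.9 CPM (log2 difference 0.85, SE 0.24, adjusted p = 0.017). Dll1 and Jag2 were not called, at -0.15 and 0.09. Each of the 4 calls in this list of 7 tested genes was lost in 3 or 4 of the alternatives tried, with highest adjusted p values of 0.203 for Notch2, 0.281 for Notch4, 0.136 for Dll4 and 0.116 for Jag1.

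Of 10 Notch targets and modifiers tested, 5 fell and 3 rose. Hes1, a direct target, was at 211, 282 and 198 CPM in RW and 112, 91.2 and 124 in aN1aN2, without overlap (log2 difference -1.07, SE 0.18, adjusted p = 0.000139). Hey1 was at 19.3, 26.9 and 44.5 CPM in RW and 2.29, 2.68 and 6.37 in aN1aN2 (log2 difference -3.10, SE 0.61, adjusted p = 0.000823). Ccnd1, the cyclin of the early cell cycle, was at 230.1, 213 and 114 CPM in RW and 6.86, 32.2 and 0 in aN1aN2 (log2 difference -3.77, SE 0.61, adjusted p = 0.000113). These 3 kept their calls in every alternative tried.

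Hey2 and the feedback inhibitor Nrarp also fell, by 2.11 and 0.85 on the log2 scale (adjusted p = 0.0248 and 0.0283). Both lost the call in 5 alternatives, among them without aN1aN2 1, 2 or 3 (highest adjusted p 0.132 and 0.125). The risers were Mfng and Lfng, enzymes that put sugars on Notch receptors, and the cell-cycle inhibitor Cdkn1a. Mfng rose from 95.1, 89.3 and 115 to 219.6, 206 and 207 CPM (log2 difference 1.07, SE 0.15, adjusted p = 1.78e-05), and Lfng by 0.92 (adjusted p = 0.016), a call lost with equal cell numbers and without RW 2, aN1aN2 2 or aN1aN2 3. Cdkn1a was at 185, 259 and 66.3 CPM in RW and 1148, 1027 and 1187 in aN1aN2, with no overlap (log2 difference 2.75, SE 0.29, adjusted p = 4.68e-07). Dtx3 and Rfng were tested and not called, at 0.35 and 0.87 (adjusted p = 0.36 and 0.0511). Heyl, Dtx1, Dtx4, Myc and Hes5 were too low to test, and Hes5 had no UMI in EC1.

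**Figure D3:**
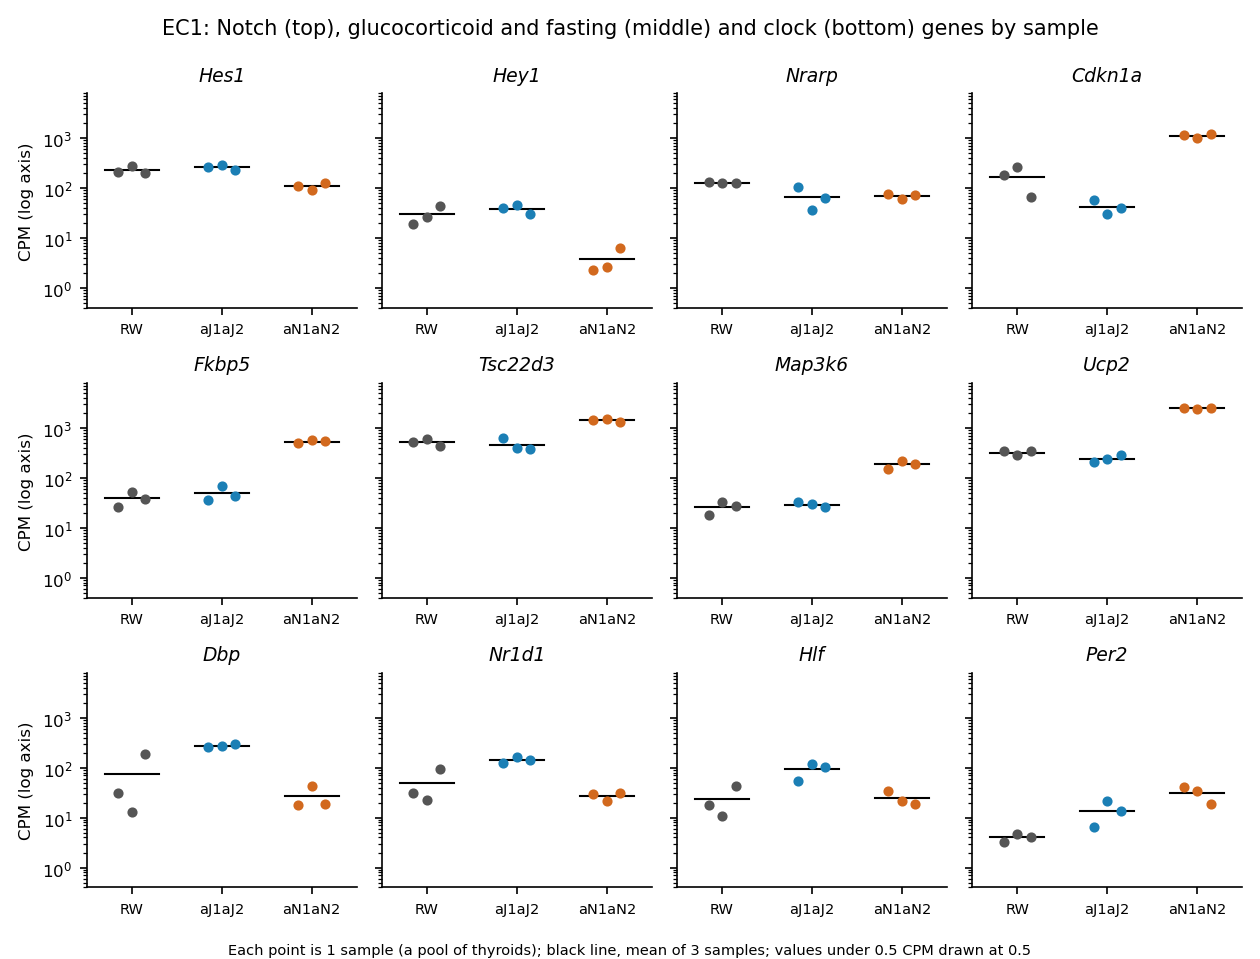
CPM on a log axis of 12 response genes in the 9 samples (points are samples, lines are group means), in rows of Notch, glucocorticoid and fasting, and clock genes. Hes1 and Hey1 are low and Cdkn1a, Fkbp5, Tsc22d3, Map3k6 and Ucp2 high in aN1aN2, while Dbp, Nr1d1 and Hlf are highest in aJ1aJ2.

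Glucocorticoids are adrenal steroids whose receptor switches on a well-known set of genes in most cell types. Of 12 such genes tested, 10 rose in aN1aN2, none fell, and the median log2 difference was 2.06. The promoters shown are those of the 4 called genes with the largest changes that had a sequence, out of the glucocorticoid, clock and Notch lists, and all 4 belong to the glucocorticoid list. Each is the 250 bases before the most upstream RefSeq transcription start of the gene in GRCm38.p6. A sequence was found for 43 of the 54 genes in these lists. Ccnd1, Hey1, Per2 and Zbtb16 changed more than Map3k6 and Errfi1 but had no sequence. Capitals mark matches on either strand to CACGTG (the E-box of clock factors), TTATGTAA (the D-box), TGGGAA (the core Notch site) or the palindromic glucocorticoid receptor site. The windows lie at chr6:90462326-90462575 on the plus strand for Klf15, chr17:28486150-28486399 on the minus strand for Fkbp5, chr4:133240568-133240817 on the plus strand for Map3k6 and chr4:150853546-150853795 on the plus strand for Errfi1.
Klf15: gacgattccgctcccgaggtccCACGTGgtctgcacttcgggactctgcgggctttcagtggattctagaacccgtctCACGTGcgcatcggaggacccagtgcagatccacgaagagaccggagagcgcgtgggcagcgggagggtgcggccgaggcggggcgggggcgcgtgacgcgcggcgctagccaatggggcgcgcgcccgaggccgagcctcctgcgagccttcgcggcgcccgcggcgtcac
Fkbp5: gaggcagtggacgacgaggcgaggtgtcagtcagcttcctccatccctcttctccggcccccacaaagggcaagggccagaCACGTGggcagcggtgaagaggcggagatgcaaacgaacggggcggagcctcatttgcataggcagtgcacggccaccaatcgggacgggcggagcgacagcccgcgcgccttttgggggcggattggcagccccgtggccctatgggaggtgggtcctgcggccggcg
Map3k6: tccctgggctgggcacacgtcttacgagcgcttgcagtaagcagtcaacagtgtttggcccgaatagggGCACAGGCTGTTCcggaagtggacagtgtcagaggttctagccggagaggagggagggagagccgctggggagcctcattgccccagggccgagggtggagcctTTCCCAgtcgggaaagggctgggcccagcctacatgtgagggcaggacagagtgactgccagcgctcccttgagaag
Errfi1: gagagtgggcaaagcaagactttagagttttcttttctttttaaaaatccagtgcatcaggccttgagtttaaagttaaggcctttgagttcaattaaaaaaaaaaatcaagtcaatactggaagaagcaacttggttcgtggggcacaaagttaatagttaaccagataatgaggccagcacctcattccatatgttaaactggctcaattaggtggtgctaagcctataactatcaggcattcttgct
The Map3k6 window held the glucocorticoid receptor site, which 0.377% of 27025 promoter windows hold, with its first base 181 bases before the start. It also held TGGGAA on the reverse strand 77 bases before the start, a match that 21.5% of windows share. CACGTG occurred in the Klf15 window 228 and 172 bases and in the Fkbp5 window 169 bases before the start, against 6.04% of all windows. TTATGTAA, in 0.862% of windows, was in none of the 4, and the Errfi1 window held no match to any of the 4 motifs.

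Fkbp5, a chaperone that dampens the glucocorticoid receptor, was at 26.6, 53.1 and 38.6 CPM in RW and 489, 563 and 544 in aN1aN2, 13.6-fold higher (log2 difference 3.76, SE 0.21, adjusted p = 4.38e-11). Tsc22d3, an anti-inflammatory mediator of glucocorticoids, was at 535, 607 and 444 CPM in RW and 1443, 1488 and 1343 in aN1aN2 (log2 difference 1.43, SE 0.16, adjusted p = 8.08e-07). Map3k6, a stress kinase, was at 17.95, 33.1 and 27.3 CPM in RW and 151, 223 and 188 in aN1aN2 (log2 difference 2.83, SE 0.21, adjusted p = 3.98e-09). All 3 genes were separated completely between the groups.

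Klf9, a transcription factor, rose from 206, 229 and 289 to 558, 593 and 643 CPM (log2 difference 1.30, SE 0.13, adjusted p = 3.39e-07). Sult1a1, a sulfotransferase, rose from 53.9, 53.1 and 128 to 364, 424 and 468 CPM (log2 difference 2.36, SE 0.24, adjusted p = 3.53e-07). Errfi1, an inhibitor of growth factor receptors, rose by 2.76, the transcription factor Zbtb16 by 2.95, and the metallothioneins Mt1 and Mt2 by 1.26 and 1.75 on the log2 scale. Klf15 had 2 UMIs in RW and 17 in aN1aN2, a ratio of 37.8 with a 95% counting interval of 8.98 to 338. Not all members moved: Sgk1, a kinase, was at 535, 536 and 550.1 CPM in RW and 597, 676 and 433 in aN1aN2 (adjusted p = 0.804), and the phosphatase Dusp1 was at 0.78 (adjusted p = 0.061).

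Genes that respond to fasting and fatty acids also rose, 6 of 13 tested with none lower. Ucp2, a mitochondrial carrier, was at 338, 291 and 338 CPM in RW and 2500.0, 2432 and 2556 in aN1aN2, 7.72-fold higher (log2 difference 2.95, SE 0.13, adjusted p = 2.16e-12). Txnip, an inhibitor of glucose uptake, was at 703, 633 and 606 CPM in RW and 2495, 2639 and 2422 in aN1aN2 (log2 difference 1.96, SE 0.14, adjusted p = 1.4e-09). Angptl4, an inhibitor of lipoprotein lipase, had 1 UMI in RW and 47 in aN1aN2, a ratio of 209 with a 95% counting interval of 35.8 to 8436. Acot1, a thioesterase, rose by 3.18 and Cpt1a, which carries fatty acids into mitochondria, by 0.74 on the log2 scale. The Cpt1a call was lost without aN1aN2 2 (adjusted p = 0.209). The enzymes of fatty acid oxidation proper, Acadm, Acadl, Acadvl, Hadha and Hadhb, were between -0.36 and 0.13 and were not called.

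The largest changes outside these lists were of the same order. Slc10a6, a carrier of sulfated steroids, went from 3.99, 7.70 and 2.73 to 112, 137 and 178 CPM, 30.8-fold (log2 difference 4.95, SE 0.29, adjusted p = 1.43e-10). Ddit4, a stress-induced inhibitor of mTOR, went from 38.6, 38.5 and 44.97 to 699.9, 783 and 863 CPM, 18.97-fold (log2 difference 4.25, SE 0.19, adjusted p = 3.55e-12). Tmem252 rose 24.5-fold, and Spsb1, Lao1, Spock2 and Fam107a rose by 4.70, 4.69, 4.14 and 3.96 on the log2 scale. In the other direction Tbxa2r, the thromboxane receptor, went from 204, 200.2 and 231 to 16.01, 8.04 and 6.37 CPM, 19.7-fold lower (log2 difference -4.30, SE 0.27, adjusted p = 3.88e-10). Cpxm2 fell by 4.13. Hbegf, a growth factor of the EGF family, had 300 UMIs in RW and 3 in aN1aN2, a depth-scaled ratio of 22.5 (95% counting interval 7.61 to 110). Cyp1a1, an oxidase induced through the aryl hydrocarbon receptor, had 765 UMIs in RW and 3 in aN1aN2, a ratio of 57.3 (19.5 to 278), with RW 1 the highest of the RW samples at 364, 85.4 and 48.6 CPM.

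Interferon-stimulated genes were lower. Of 16 tested, 12 fell and none rose, with a median log2 difference of -1.17. Without RW 2 or without aN1aN2 2 the list had 7 called genes. Isg15, a ubiquitin-like protein, was at 133, 188 and 198 CPM in RW and 52.6, 59.00 and 85.9 in aN1aN2 (log2 difference -1.43, SE 0.21, adjusted p = 3.66e-05). Bst2, an antiviral membrane protein, was at 551, 832 and 710.5 CPM in RW and 373, 247 and 191 in aN1aN2 (log2 difference -1.35, SE 0.21, adjusted p = 6.32e-05). The regulator Irf7 fell by 1.54, Gbp4 by 2.23, Gbp7 by 1.21 and Iigp1 by 1.14 on the log2 scale. Ifit1, Stat2, Gbp2, Ifitm3 and Igtp also fell, and each of these 5 lost its call in 4 to 6 alternatives. Of 12 MHC class I genes, the peptide transporter Tap1 and the proteasome subunits Psmb8 and Psmb9 fell, by 1.33, 0.61 and 0.87, while H2-K1, H2-D1 and B2m, the class I molecule itself, were at -0.22, -0.16 and -0.28 and were not called.

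Chaperones of the endoplasmic reticulum were split, with 6 of 14 lower and 2 higher. Hsp90b1 went from 717, 822 and 716 to 295, 316 and 334 CPM (log2 difference -1.26, SE 0.12, adjusted p = 1.29e-07). Calr and Pdia6, which fold glycoproteins and form disulfide bonds, fell by 1.45 and 1.77, and Hspa5, Pdia4 and Sdf2l1 by 0.75, 1.03 and 1.04 on the log2 scale. The Sdf2l1 call was lost without aN1aN2 1 or 3. Xbp1, a regulator of the same stress response, and Herpud1 rose by 0.67 and 0.70. Of 13 transcripts of the mitochondrial genome, mt-Co1, mt-Co2, mt-Co3 and mt-Atp6 rose by 0.45, 1.31, 1.497 and 1.31, and mt-Atp8 fell by 0.55, with the mt-Co1 call lost without aN1aN2 2. Of the clock list, Per1, Per2 and Tef rose by 1.22, 2.99 and 1.33, 3 of 15 tested, and none fell. Tef lost the call without any 1 of RW 1, RW 2 and the aN1aN2 samples. Per1 is also a known glucocorticoid target.

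**Figure D4:**
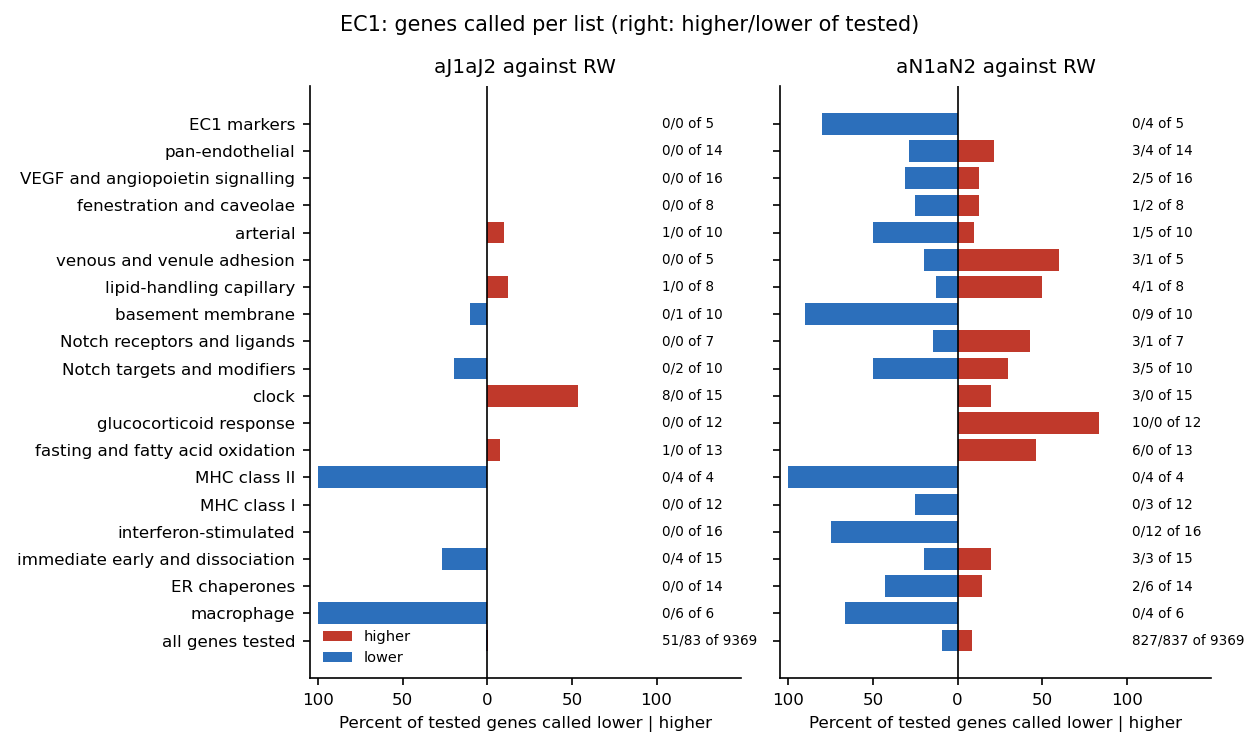
Percent of tested genes of each list called higher (right) and lower (left) in EC1, for aJ1aJ2 and aN1aN2 against RW. After receptor blockade the glucocorticoid bar (10 of 12) points up and the basement membrane (9 of 10) and interferon bars (12 of 16) point down, and after ligand blockade the 3 longest bars are those of the clock genes, MHC class II and macrophage genes.

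Markers of other cell types moved with the receptor blockade. Of 5 thyrocyte genes tested, 4 rose, and Tg went from 971, 894 and 694 to 1873, 1295 and 1334 CPM (log2 difference 0.82, SE 0.17, adjusted p = 0.00117), a call lost with equal cell numbers per sample (adjusted p = 0.261). The Epcam call was lost without aN1aN2 1, and the Pax8 call in 9 alternatives. The 12 thyrocyte markers summed to between 741 and 1021 CPM for RW, between 797 and 1298 for aJ1aJ2 and between 1349 and 1997 for aN1aN2, and Duox2 had no UMI. All 3 tested parathyroid and C cell genes rose, with Pth going from 65.2, 40.03 and 73.6 to 189.8, 287 and 181 CPM, and the 5 markers of that list summed to between 113 and 122 CPM for RW and between 349.9 and 507 for aN1aN2. Gcm2 and Calcb of that list had no UMI. The fibroblast genes Dcn and Gsn rose, with Dcn at 222, 249 and 15.9 CPM in aN1aN2 and lowest in aN1aN2 3, and both calls were lost in 4 alternatives. The 7 fibroblast markers summed to between 34.6 and 158 CPM for RW and between 63.7 and 630.2 for aN1aN2. The 6 erythroid markers summed to between 4029 and 21933 CPM for RW and between 2371 and 7907 for aN1aN2, and 0 of 5 tested were called. Their part in the changes of EC1 was not tested for single genes, while without the thyrocyte and erythroid genes 1685 genes were called, and without the 60 immune-marked cells 1651.

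The shifts were visible cell by cell. To compare depths, every EC1 cell was thinned to 1000 UMIs, which kept 660 of 661 RW cells and all 678 aJ1aJ2 and 264 aN1aN2 cells. Shares pool the cells of the 3 samples of a group, and the range over samples stands beside them. Esm1 was found in 56.7% of RW cells (50.8% to 63.2%) and 12.9% of aN1aN2 cells (9.33% to 17.1%). Before thinning the pooled shares were 77.9% and 31.1%. Kdr was found in 82.0% (79.5% to 85.1%) and 33.0% (29.2% to 36%) of cells, and in 98.9% and 65.9% before thinning. Thyrocytes of the label Th1, which should lack both genes, had Esm1 in 2.12% and 0.575% and Kdr in 4.71% and 1.15% of thinned cells, so the remaining EC1 shares in aN1aN2 stood above that background. Ucp2 went the other way, from 26.1% to 87.1% of thinned EC1 cells, and Cdkn1a from 14.7% to 65.2% (72.8% to 98.5% and 48.1% to 88.6% before thinning). In Th1 the thinned shares were 12.9% and 16.1% for Ucp2 and 2.82% and 8.62% for Cdkn1a. Plvap was found in 97.1% of RW and 97.7% of aN1aN2 cells. The median depth of Th1 was 12553 UMIs per cell. EC4, of which 126 of 268 RW and 223 of 442 aN1aN2 cells could be thinned, moved the same way. Its thinned shares went from 42.9% to 9.42% for Esm1 and from 82.5% to 46.6% for Kdr. They went from 21.4% to 82.1% for Ucp2 and from 7.94% to 65.9% for Cdkn1a.

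Ligand blockade changed far fewer EC1 genes. After antibodies to Jag1 and Jag2, 51 genes were higher and 83 lower than in RW among the same 9369, 1.43% of them. The higher genes were 0.544% and the lower genes 0.886% of those tested, and 12.6% had an unadjusted p under 0.05. None of the 5 capillary markers, 14 pan-endothelial genes, 16 VEGF genes, 8 fenestration genes or 12 glucocorticoid genes was called. Esm1 was at 2738, 2058 and 2281 CPM in aJ1aJ2, overlapping the RW samples (log2 difference 0.38, SE 0.13, adjusted p = 0.207), and Kdr at 2225, 2084 and 2118 CPM (log2 difference -0.08, SE 0.10, adjusted p = 0.825). Without RW 3 and aJ1aJ2 1, which leaves the 2 samples per group of 1 range of sample numbers, Esm1 passed the threshold at 0.44 (adjusted p = 0.0163). There 6 of the glucocorticoid genes were called, counted in either direction, and their directions were not followed. Esm1 was also called without RW 3 alone (adjusted p = 0.0149), and Emcn without aJ1aJ2 1 (-0.42, adjusted p = 0.0323). The count of 134 called genes was between 38 and 386 when 1 sample was left out, and 632 within that range of sample numbers.

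Clock genes were the list with the most genes called higher. The circadian clock is a feedback loop in which Clock and Arntl drive the Per, Cry, Nr1d and PAR-domain genes (Dbp, Tef and Hlf), which peak at a given time of day. Of 15 clock genes tested, 8 rose and none fell, with a median log2 difference of 1.48, and 11 did not overlap between the groups against 14.9% of all genes tested. Hlf was at 17.95, 10.8 and 42.7 CPM in RW and 55.4, 119 and 104 in aJ1aJ2 (log2 difference 1.91, SE 0.30, adjusted p = 0.00147). Nr1d1, a repressor of Arntl, was at 31.3, 22.3 and 94.04 CPM in RW and 126, 166 and 141 in aJ1aJ2 (log2 difference 1.48, SE 0.30, adjusted p = 0.0114). Tef was at 13.96, 9.24 and 44.1 CPM in RW and 53.8, 90.7 and 98.3 in aJ1aJ2 (log2 difference 1.77, SE 0.34, adjusted p = 0.00764). In each of these RW 3 stood well above RW 1 and RW 2 and below aJ1aJ2 1, the sample of its own range of sample numbers.

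Nr1d2 rose by 1.33, Per2 by 1.89, Per3 by 1.498, Cry2 by 1.99 and Bhlhe41, a repressor, by 1.78 on the log2 scale (adjusted p from 0.00361 for Nr1d2 to 0.044 for Per3). Dbp was at 31.3, 13.1 and 185 CPM in RW and 254, 268 and 303 in aJ1aJ2 and was not called (log2 difference 1.75, SE 0.45, adjusted p = 0.0525). Arntl, which peaks opposite to these genes, was at 37.2, 41.6 and 10.9 CPM in RW and 11.4, 13.4 and 6.06 in aJ1aJ2 and was not called either (log2 difference -1.47, SE 0.42, adjusted p = 0.0937). Within the range of sample numbers that holds RW 1, RW 2, aJ1aJ2 3 and aJ1aJ2 4, the differences were larger, at 2.93 for Hlf, 2.51 for Nr1d1 and 3.00 for Tef, and 11 of the 15 genes were called. In the other range each group had 1 sample, so no test was possible there. The hour of tissue collection is not given in the labels, and its part in the clock genes was not tested. The calls of Hlf and Nr1d2 held in every alternative; Tef lost its call without aJ1aJ2 3 or 4, Nr1d1 and Cry2 without RW 1, RW 2, aJ1aJ2 3 or 4, and Per2, Per3 and Bhlhe41 in 6 or 7 alternatives each.

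None of 7 receptor and ligand genes was called, with Notch1 at 0.07, Notch2 at 0.56, Notch4 at 0.07, Dll1 at -0.76, Dll4 at -0.16, Jag1 at -0.23 and Jag2 at -0.22 on the log2 scale. Of 10 targets and modifiers, 2 fell and none rose. Cdkn1a was at 185, 259 and 66.3 CPM in RW and 58.7, 30.02 and 39.7 in aJ1aJ2, so the highest aJ1aJ2 sample lay just under the lowest RW sample (log2 difference -2.06, SE 0.34, adjusted p = 0.00206). Its fall held in every alternative and was opposite in direction to its rise under receptor blockade, with which it shares the RW samples. Nrarp was at 132, 124 and 129 CPM in RW and 104, 35.8 and 63.3 in aJ1aJ2 (log2 difference -1.04, SE 0.22, adjusted p = 0.0186), and its call was lost in 7 alternatives (highest adjusted p 0.184). Hes1 was at 266, 292 and 231 CPM, Hey1 at 39.1, 45.4 and 30.3 and Hey2 at 13.04, 21.7 and 16.8 in aJ1aJ2, each overlapping RW, and Ccnd1, Lfng, Mfng, Rfng and Dtx3 were not called (adjusted p from 0.0676 for Lfng to 0.982 for Rfng). Within the range of 2 samples per group, 4 of the 10 targets and modifiers were called, among them Lfng at 1.24 and Ccnd1 at -1.28 (adjusted p = 7.39e-05 and 6.65e-06). The ligand Dll1 was also called there, at -1.07 (adjusted p = 0.0205).

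MHC class II genes, which present antigen to T cells and are normally made by immune cells, were lower in EC1 of both blockades. Both comparisons use the same RW samples. All 4 tested fell in aJ1aJ2. Cd74, the invariant chain, was at 370.4, 301 and 615 CPM in RW, 53.8, 83.7 and 57.2 in aJ1aJ2 and 11.4, 169 and 15.9 in aN1aN2. The log2 differences from RW were -2.69 for aJ1aJ2 and -2.72 for aN1aN2 (adjusted p = 0.000632 and 0.000145). With DESeq2 the aJ1aJ2 calls of Cd74 and H2-Eb1 were lost (adjusted p = 0.141 and 0.143). H2-Aa was at 102, 118 and 178 CPM in RW, 14.7, 24.3 and 24.2 in aJ1aJ2 and 4.57, 32.2 and 0 in aN1aN2. H2-Ab1 and H2-Eb1 differed by -2.22 and -2.23 in aJ1aJ2 and by -2.71 and -2.98 in aN1aN2.

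The macrophage markers went with them. All 6 tested fell in aJ1aJ2, with the complement gene C1qa going from 40.6, 32.3 and 77.2 to 16.3, 13.4 and 8.75 CPM, and 4 of 6 fell in aN1aN2. In aJ1aJ2 the Fcer1g call was lost in 7 alternatives, that of Lyz2 in 3 and those of C1qb and Tyrobp in 2. C1qa, C1qb and C1qc had 1 UMI each in aN1aN2, and Tyrobp had 0 against 124 in RW, at least 9.29-fold lower when 3 counts are taken as the limit for the whole group. The 11 macrophage markers summed to between 142 and 357 CPM for RW, between 50.5 and 121 for aJ1aJ2 and between 29.7 and 57.3 for aN1aN2, and none was at 0 UMIs over all EC1 cells. The 60 immune-marked cells, chosen without the MHC class II genes, held 87.5% of the 2623 Cd74 UMIs of EC1, 84.9% of H2-Aa, 71.1% of H2-Ab1 and 84.7% of H2-Eb1. They numbered 13, 7 and 13 in RW, 1, 13 and 8 in aJ1aJ2, and 1, 3 and 1 in aN1aN2. Without them Cd74 was at 19.5, 115 and 40.5 CPM without TMM scaling in RW, 10.5, 29.4 and 13.2 in aJ1aJ2, and 11.8, 9.19 and 16.3 in aN1aN2. The aJ1aJ2 calls of all 4 MHC genes were then lost, with log2 differences of -1.58, -1.15, -0.98 and -1.33 for Cd74, H2-Aa, H2-Ab1 and H2-Eb1 (adjusted p = 0.0790, 0.448, 0.407 and 0.219). In aN1aN2, Cd74 and H2-Eb1 kept their calls at -2.23 and -2.61 (adjusted p = 0.0229 and 0.0358). H2-Aa was at -3.42 with all cells and -3.37 without the immune-marked ones (adjusted p = 0.0553), and H2-Ab1 at -2.71 and -1.18 (adjusted p = 0.253).

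**Figure D5:**
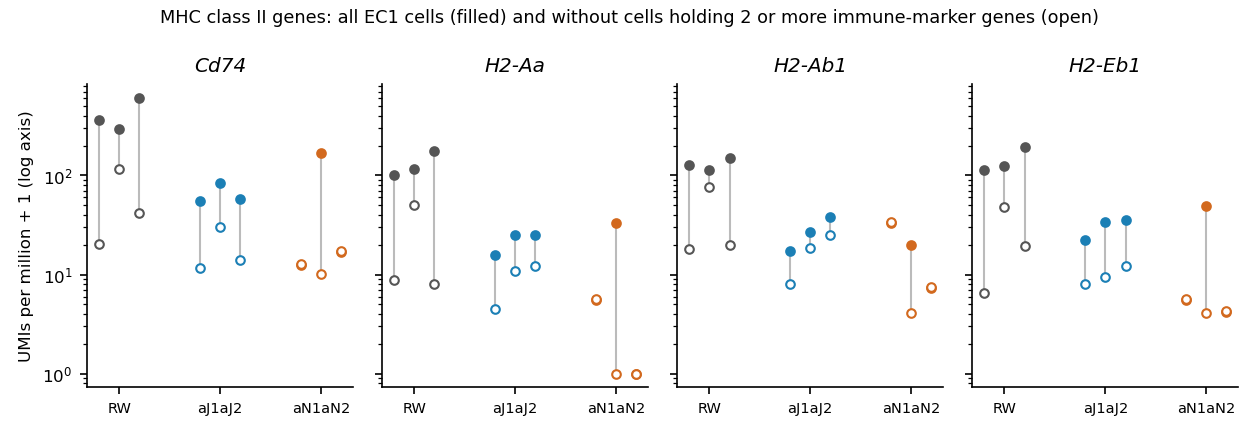
CPM + 1 without TMM scaling, on a log axis, of 4 MHC class II genes in the 9 samples, over all EC1 cells (filled) and without the 60 immune-marked cells (open). In RW 1 and RW 3 Cd74 drops from 362 to 19.5 and from 601 to 40.5 without these cells, while RW 2 drops from 292 to 115 and stays above the other groups.

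Few other lists were touched by ligand blockade. Of 15 immediate early and dissociation genes, 4 fell and none rose. The heat shock gene Hspa1a was at 64.5, 31.6 and 56.3 CPM in RW and 6.52, 4.47 and 13.5 in aJ1aJ2 (log2 difference -2.59, SE 0.33, adjusted p = 0.000251), a call kept in every alternative. Hspa1b fell by 2.25 (adjusted p = 0.000356), a call lost with equal cell numbers. Fos and Nr4a1 fell by 1.56 and 1.74, and both calls were lost in 7 alternatives (highest adjusted p 0.307 and 0.705). In aN1aN2 Hspa1a and Hspa1b were also lower, at 9.15, 5.36 and 6.37 and 11.4, 16.1 and 6.37 CPM, Nr4a1 fell by 4.11, and Jund, Ier3 and Btg2 rose by 0.85, 0.90 and 0.62, the last a call lost in 6 alternatives. These genes also respond to tissue digestion, whose part was not tested.

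Lpl was at 9.31, 10.01 and 17.7 CPM in RW and 26.1, 40.2 and 39.7 in aJ1aJ2, without overlap (log2 difference 1.504, SE 0.25, adjusted p = 0.00234), and lost its call only with equal cell numbers per sample (adjusted p = 0.111). It was the 1 called gene of 8 in the lipid list, and it rose in both blockades, which share the RW samples. Cxcl12, a chemokine of arterial endothelium, was at 204, 208 and 204 CPM in RW and 306, 291 and 424 in aJ1aJ2 (log2 difference 0.74, SE 0.15, adjusted p = 0.0137), and lost its call with equal cell numbers and without RW 2 or aJ1aJ2 4. Col4a1 fell by 0.69 (adjusted p = 0.038), the 1 called member of 10 in the basement membrane list, and lost the call in 7 alternatives. Within the range of 2 samples per group it was at -1.08 (adjusted p = 4.13e-06), and 7 basement membrane genes were called, counted in either direction. Txnip rose by 0.54 (adjusted p = 0.043), the 1 called member of 13 in the fasting list, and lost it in 7.

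Outside the lists, Cyp26b1, which degrades retinoic acid, was at 46.5, 172 and 151 CPM in RW, 210.3, 457 and 333 in aJ1aJ2 and 679, 628 and 547 in aN1aN2 (aJ1aJ2 against RW 1.46, adjusted p = 0.00983), a call lost with DESeq2 and without aJ1aJ2 3. The chromatin protein Cbx7 rose by 1.46 and the receptor Gpr182 by 2.11, and these calls were lost in 3 and 7 alternatives (highest adjusted p 0.234 and 0.819). The kinase Sik1 fell by 2.23, a call lost with equal cell numbers, and the immune genes Ctss and Cd52 by 2.47 and 2.30. Single markers of other cells were also called: Rgs5 of mural cells (-1.504), Pmp22 of Schwann cells (-0.56) and Ckm of muscle (2.67), each lost in 5 or 6 alternatives. No gene of the thyrocyte, fibroblast, parathyroid, MHC class I, ER chaperone or interferon lists was called. The interferon list had 4 called genes with no filter on low counts, 3 without RW 1, 2 without aJ1aJ2 1 and 2 within the range of sample numbers with 2 samples per group.

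The 2 blockades were compared directly in the same fit. No range of sample numbers holds both groups, so the kind of blockade and the range cannot be told apart. Between aN1aN2 and aJ1aJ2, 1268 of 9369 genes were called, 13.5%, with 651 higher in aN1aN2 (6.95%) and 617 lower (6.59%). The CPM did not overlap for 30.4% of genes, and 25.4% had an unadjusted p under 0.05. Of the 5 capillary markers 4 were lower in aN1aN2: Esm1 11.4-fold (log2 difference -3.51, SE 0.16, adjusted p = 5.55e-12), Emcn by 1.28, Rbp7 by 1.33 and Col13a1 by 0.39 (adjusted p = 0.0352, lost in 5 alternatives). Plvap was at 0.12 (adjusted p = 0.616). The choice of these markers favours lower values in aN1aN2, as stated above. Kdr and Nrp1 were lower by 2.39 and 2.23. Cdkn1a, which moved in opposite directions from RW, was 27.9-fold higher in aN1aN2 (log2 difference 4.80, SE 0.34, adjusted p = 3.19e-09). Of the clock genes 3 were higher and 4 lower, with Dbp at -3.37, Nr1d1 at -2.40 and Hlf at -1.92, against Arntl at 2.09 and Nfil3 at 3.27. Of 12 glucocorticoid genes 10 were higher in aN1aN2, and of 13 fasting genes 7, with Ucp2 at 3.34. Among Notch targets Hes1, Hey1, Hey2 and Ccnd1 were lower by 1.27, 3.38, 2.30 and 3.38. Of 4 MHC class II genes none was called, so the fall from RW was not shown to differ between the blockades.

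The response of EC1 was then tested against that of the other endothelial labels, as the difference of the 2 log2 changes within the same samples. Against EC4, 28 of 5681 genes differed in their response to receptor blockade, 0.493%, and 3 in the response to ligand blockade, 0.0528%. The 28 became 67 without cells under 1000 UMIs and 13, 10, 17 and 16 without RW 1, RW 3, aN1aN2 1 and aN1aN2 2. The 3 became 5 with no filter on low counts, 7 without RW 1, 10 without aJ1aJ2 4, and 0 without aJ1aJ2 3 and with DESeq2. Of 199 genes of the lists tested there, 11 were called for receptor blockade, and for 150 the interval of 2 SE around the difference held 0. For Kdr the response in EC1 was lower by 0.35 on the log2 scale, with an interval of -0.71 to 0.02 (adjusted p = 0.545), as mean CPM went from 2356 to 432 in EC1 and from 2964 to 698 in EC4. For Esm1 the difference was -0.26 with an interval of -0.75 to 0.24, for Nrp1 -0.08 with -0.45 to 0.29, for Ucp2 0.15 with -0.26 to 0.55 and for Fkbp5 0.37 with -0.44 to 1.18. For these genes the interval held 0, which does not show that the responses were equal. Of the list genes 11 of 199 were called, beside 28 of 5681 genes in all. The called list genes were Sgk1, Aqp1, Rsad2, Tg, the 4 globins and 3 mitochondrial transcripts. Sgk1 went from 562 to 601 CPM in EC1 and from 309 to 630.4 in EC4 (difference -0.93, adjusted p = 0.0187). Aqp1 went from 419 to 182 CPM in EC1 and from 266 to 263 in EC4 (difference -1.19, adjusted p = 0.0139).

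Against EC2, 94 of 6899 genes differed in the response to receptor blockade, 1.36%. In the response to ligand blockade, with 2 RW and 2 aJ1aJ2 samples, edgeR called 33, 0.478%, and DESeq2 called 0. Leaving out 1 of these samples leaves a group of 1 sample, so no count is given for it. Gja4 was lower in EC1 after receptor blockade and higher in EC2, with means of 52.0 and 4.37 CPM in EC1 and 10.3 and 70.1 in EC2 (difference -5.76, adjusted p = 8.55e-05), a call lost without aN1aN2 3 (-4.58, adjusted p = 0.0715). One of the 2 EC2 samples of RW was at 0 CPM of Gja4, so the fitted size is not a bound, and without RW 1 it was -11.35. In response to ligand blockade Col15a1 went from 366 to 272 CPM in EC1 and from 146 to 22.1 in EC2 (difference 2.11, adjusted p = 0.00395). The call was lost with DESeq2. With 1 sample left out, which leaves a group of 1 sample, the difference ran from 1.61 without aJ1aJ2 3 to 3.34 without aJ1aJ2 4. Against EC3, 191 of 7975 genes differed in the response to receptor blockade, 2.39%, and the count was 66 without aN1aN2 2, 69 without aN1aN2 3, 100 without RW 1 and 113 without RW 2. In the response to ligand blockade edgeR called 0, with 505 genes at an unadjusted p under 0.05, and DESeq2 called 0. Without a filter on low counts 37 were called there, and 2, 4 and 10 without RW 1, RW 2 and RW 3. With 2 aJ1aJ2 samples in that fit, leaving out either leaves a group of 1, so no count is given for it. Col15a1 went from 322 to 39.4 CPM in EC1 and from 28.6 to 33.7 in EC3 after receptor blockade (difference -3.23, adjusted p = 0.00164). These labels held few cells per sample, and a sample entered only with at least 20 cells in both labels.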

How the data were processed

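Per the labels' protocols, single cells were captured with the 10x 3' v2 kit and sequenced on a HiSeq4000. Cell Ranger and GRCm38 are named in the submitters' processing notes. How cells were labelled is not given in the sources used here. The authors deposited UMI counts per gene and cell (52636 genes, 10186 cells of 500 to 131347 UMIs). An unquoted comma in 2619 annotation lines was repaired, 52403 gene identifiers were matched to symbols, and no doublet caller was run. Counts were summed per sample and label, giving 312578 to 2227058 UMIs of tested genes per EC1 sum. The 9 sums entered 1 fit with edgeR 4.0.16 in R 4.3.3 (filterByExpr, TMM, quasi-likelihood test, Benjamini-Hochberg adjustment, threshold 0.05). CPM are scaled with TMM unless stated. Responses of labels were compared with a label by group term and a term per sample. Intervals of counts are 95% and cover counting error only. Alternatives were DESeq2 1.42.0, its size factors, no filter on low counts, only the 2 groups compared, equal cells, samples left out, a replicate block, and the range of sample numbers as a term or 1 range alone. Others left out cells under 1000 UMIs, immune-marked cells, or thyrocyte and erythroid genes. Not every alternative was run for every comparison.

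Named genes were the 10 largest rises and 10 largest falls per comparison among called genes that do not overlap between groups and reach a mean of 20 CPM, all called list members, and all members of the marker and Notch lists. For label comparisons the 5 largest in each direction were followed. EC1 and the gene lists were chosen with earlier results of these data known. Some called list members are not reported here.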

Additional observations from a re-analysis of the deposited data

Results flagged for a closer look

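Differences between the response of EC1 and that of another endothelial label, tested as such, singled out the following results. They are given as values; no explanation was tested. In response to ligand blockade 33 genes differed between EC1 and EC2 and 3 between EC1 and EC4, and DESeq2 called 0 in both. In response to receptor blockade 94 genes differed between EC1 and EC2, 191 between EC1 and EC3 and 28 between EC1 and EC4.

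The 3 genes that differed between EC1 and EC4 under ligand blockade were Apoe, a lipid carrier, and the globins Hba-a1 and Hba-a2. Apoe went from 755 to 802 CPM in EC1 and from 394 to 846 in EC4, a difference of -1.01 on the log2 scale. Hba-a1 differed by -2.69 and Hba-a2 by -3.98, with Hba-a1 going from 2355 to 1646 CPM in EC1 and from 121 to 741 in EC4. Each of the 3 lost its call in at least 1 alternative.

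Under receptor blockade the 5 largest positive differences from EC4 were AY036118 at 1.51, Lars2 at 1.35, Tg at 1.22, Msi2 at 1.22 and Mir6236 at 1.12. Tg went from 888 to 1586 CPM in EC1 and from 2405 to 1817 in EC4. Lars2, a mitochondrial tRNA synthetase, went from 219 to 121 CPM in EC1 and from 977 to 211 in EC4. The 5 largest negative differences were Hba-a2 at -3.38, Hbb-bs at -2.36, Hbb-bt at -2.26, Hba-a1 at -1.99 and Srsf7 at -1.49. Of these 10 genes 9 lost their call in some alternative.

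Against EC3 under receptor blockade, 4 of the named genes kept their call in every alternative. Angptl4 differed by 6.99 and Pgf by 6.21, values that rest on 1 and 3 UMIs in the EC1 cells of RW and so depend on the fit. Angptl4 was at 41.2 CPM in EC1 of aN1aN2 and at 19.3 and 16.2 CPM in EC3 of RW and aN1aN2. Col15a1 differed by -3.23 and Hbb-bs by -2.98.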

How the results depend on the processing

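For aJ1aJ2 against RW, 134 genes were called. The count was 356 with no filter on low counts, 77 with only the 2 groups compared, 27 with 72 cells per sample and 632 within the range of sample numbers with 2 samples per group. With 1 sample left out it was 38 (without aJ1aJ2 4) to 386 (without aJ1aJ2 1), where it was 82, 63 and 254 without RW 1, 2 and 3 and 42 without aJ1aJ2 3. DESeq2 called 92, and a term for the range of sample numbers gave 149. For aN1aN2 against RW the 1664 calls became 1163 to 1811 under other settings and 1188 to 1598 with 1 sample left out. The replicate block gave 1634; RW and aN1aN2 samples of the same number share only that number (correlation of their deviations -4e-05 and 0.017 for numbers 1 and 2). For aN1aN2 against aJ1aJ2 the 1268 calls became 895 to 1410, and 847 to 1273 with 1 sample left out. For differences in response between labels, EC1 against EC2 under aJ1aJ2 gave 33 calls, 0 with DESeq2 and 20 to 35 with 1 sample left out. Under aN1aN2 the 94 calls became 72, 79 and 74 without aN1aN2 1, 2 and 3. EC1 against EC3 under aJ1aJ2 gave 0 calls, 37 with no filter on low counts and 2, 4 and 10 without RW 1, RW 2 and RW 3. Under aN1aN2 it gave 191, and 66 to 228 with 1 sample left out. EC1 against EC4 under aJ1aJ2 gave 3, 5 with no filter, 0 with DESeq2 and 0 to 10 with 1 sample left out. Under aN1aN2 it gave 28, 67 without cells under 1000 UMIs and 10 to 37 with 1 sample left out. The difference between EC1 and EC2 under aJ1aJ2 turned positive for 2 globins without aJ1aJ2 4, which leaves 1 aJ1aJ2 sample. With 1 sample left out the difference ran from -5.13 to 0.497 for Hba-a2 and from -5.0005 to 0.0553 for Hba-a1. The alternatives for EC2 and EC3 were chosen after seeing the data. The cause of these moves was not tested. Of the called genes followed, 8 of 37 kept their call in every alternative for aJ1aJ2 against RW, 100 of 135 for aN1aN2 against RW and 74 of 113 between the blockades, and none of these changed direction. The aN1aN2 samples had 72 to 117 EC1 cells.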
